A study of Monodelphis domestica with 6 samples.

Results

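The genes CDX1, CDX2, CDX4, NKX1-2, TBXT, TBX6, MSGN1, MIXL1 and EOMES, which encode transcription factors of the primitive streak and of the posterior axis that grows out of it, were examined in opossum skin fibroblasts and in the induced pluripotent stem cells (iPSCs) made from them. They were taken by gene symbol, with TBXT filed under its older symbol T, and all 9 had a row among the 35665 genes of the deposited files. They were chosen with results from these same libraries in view, so the values of the 9 genes are given as a description and no p-value is attached to them. RNA was sequenced from 6 libraries of Monodelphis domestica, the gray short-tailed opossum. There were 2 libraries of untreated primary neonatal skin fibroblasts (neoSFs) from wild-type pups, 1 of the FD2M1 strain and 1 of the LSD1 strain, both fully inbred. There were 4 libraries of iPSCs (monoiPSCs), namely an FD2M1 line and an LSD1 line, each at passage 15 (P15) and at passage 25 (P25). The lines were made by nucleofecting neoSFs with episomal plasmids that carry human OCT4, SOX2, NANOG, KLF4, LIN28 and cMYC, and the picked colonies were grown without feeder cells in medium with LIF, bFGF and a ROCK inhibitor.

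Several features of the design limit what the values can show. Each strain contributed 1 iPSC line, so strain and line cannot be told apart. The 4 monoiPSC libraries are 2 lines sampled at 2 passages, and are not 4 independent lines. The fibroblast and iPSC libraries were also sequenced at different places and with different read lengths, so cell type and sequencing run cannot be told apart.

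In the embryos of placental mammals, TBXT, EOMES and MIXL1 mark cells that enter the primitive streak, where WNT, NODAL and FGF signals direct cells of the epiblast to form mesoderm and endoderm. The CDX homeobox factors act after this step, downstream of WNT and FGF signals, where they activate trunk HOX genes and sustain elongation of the body axis. NKX1-2 marks the posterior cells that give rise to spinal cord and somites, and TBX6 and MSGN1 commit such cells to presomitic mesoderm. CDX2 is also known for its separate role in the trophectoderm of the mouse blastocyst and, with CDX1, in the intestinal epithelium.

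The total count was 14278794 and 16982978 in the FD2M1 and LSD1 neoSF libraries and 28684754 to 35564261 in the monoiPSC libraries. Values below are normalized read counts (NRCs), which are the counts after the authors' DESeq normalization, and an NRC under 1 is listed as 0. A count of 3 in a library, taken as the floor, corresponds to an NRC of 5.85 and 4.75 in neoSFs and of 1.55 to 1.88 in monoiPSCs, so low values are less precise in neoSFs. The NRC is not divided by gene length, so levels of different genes are not compared. All 8 pluripotency markers, SOX2 and LIN28A among them, were higher in monoiPSCs and 8 of 9 fibroblast markers, COL1A1 and DCN among them, were lower, as the labels of the groups imply. The LSD1 P25 library stood apart from the other monoiPSC libraries in its skeletal muscle markers, whose values are given with the passage comparison.

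By fitted fold change, CDX2 differed most of the tested members between neoSFs and monoiPSCs. CDX2, on chromosome 4 of the MonDom5 assembly (gene 100019885), had an NRC of 3.90 in FD2M1 neoSFs, which is 2 counts, and was listed at 0 in LSD1 neoSFs. In monoiPSCs its NRC was 3928 and 3991 in the FD2M1 line at P15 and P25, and 2662 and 1124 in the LSD1 line at P15 and P25. The groups did not overlap, and the monoiPSC mean was 2926 ± 1348 (SD, n = 4). The ratio of the summed counts, 20602 against 2, was 1744 with an exact 95% counting interval of 483 to 14401. The FD2M1 line held nearly the same level at both passages, with counting intervals of 3837 to 4021 and 3893 to 4090, whereas the LSD1 line lay below it at P15 and lower still at P25. In such bulk samples, fewer cells that express a gene cannot be told apart from less RNA per cell.

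CDX4, on the X chromosome (gene 100016363), was at or below 0.08 counts in neoSFs and was listed at 0 in both. Its NRC in the FD2M1 line was 112 at P15 and 54.5 at P25, and in the LSD1 line it was 62.5 at P15 and 3.80 at P25. Only 7 counts lay behind the last of these values, with an exact Poisson 95% interval of 2.81 to 14.4 counts. The 412 counts of the 4 monoiPSC libraries put CDX4 23.2-fold above 3 counts over the neoSF group, a ratio that leaves out counting error in the monoiPSCs. CDX4 was not among the tested genes, because testing required an NRC of 20 or more in every library of at least 1 of the cell types, and the LSD1 P25 library fell short of it. The order was FD2M1 P15, then LSD1 P15 and FD2M1 P25, whose counting intervals overlapped, then LSD1 P25.

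CDX1 behaved otherwise. CDX1, on chromosome 1 (gene 100024158), had an NRC of 59.8 and 40.4 in the FD2M1 and LSD1 neoSFs. In monoiPSCs it was 91.3 and 85.1 at P15 in the FD2M1 and LSD1 lines, and 38.7 and 21.9 at P25. The P15 libraries of both lines lay above both neoSF cultures and the P25 libraries of both lines below them, so the groups overlapped. The counting intervals leave this order against neoSFs unsettled. That of FD2M1 neoSFs, 41.1 to 85.9, overlapped those of P15, 78.0 to 107 in FD2M1 and 72.6 to 99.4 in LSD1. That of LSD1 neoSFs, 25.6 to 58.5, overlapped those of P25, 29.8 to 49.9 and 15.6 to 29.3. The neoSF mean was 50.1 ± 13.7 (SD, n = 2) and the monoiPSC mean 59.2 ± 34.2 (SD, n = 4), with a log2 fold change of 0.35 (SE 0.64) in the edgeR fit. In the RefSeq gene order CDX1 lies next to PDGFRB, a receptor of fibroblasts, whose NRC was 13516 and 15974 in neoSFs and 159 to 410 in monoiPSCs. Whether counting used strand is not given in the sources used here, and the part of overlapping or neighboring transcripts in the neoSF counts of CDX1 was not tested.

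NKX1-2, a homeobox gene on chromosome 1 (gene 100019800), had 1 count in LSD1 neoSFs and 0.667 counts in FD2M1 neoSFs. Its NRC was 546 and 336 in the FD2M1 line at P15 and P25, and 460 and 62.7 in the LSD1 line. All monoiPSC libraries lay above both neoSF cultures, and the LSD1 P25 library was far below the other monoiPSC libraries. The mean was 351 ± 211 (SD, n = 4), and the ratio of the summed counts was 212 with a counting interval of 58.6 to 1751. The counting intervals of its 4 monoiPSC values did not overlap, in the order FD2M1 P15, LSD1 P15, FD2M1 P25 and LSD1 P25.

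MIXL1, a homeobox gene induced in the streak by NODAL signals, was present in both cell types and varied less among monoiPSCs than the other tested members did. MIXL1, on chromosome 2 (gene 100026252), had an NRC of 20.9 and 22.5 in the FD2M1 and LSD1 neoSFs. It was 68.0 and 83.0 in the FD2M1 line at P15 and P25, and 72.9 and 70.1 in the LSD1 line. Every monoiPSC library was above both neoSF libraries, while among the 4 monoiPSC values all counting intervals overlapped. The neoSF mean was 21.7 ± 1.14 (SD, n = 2) and the monoiPSC mean 73.5 ± 6.63 (SD, n = 4), a fitted difference of 3.58-fold.

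Of the T-box members, TBXT and EOMES lay near the floor and TBX6 overlapped between the groups. TBXT, the brachyury gene on chromosome 2 (gene 100028255), was listed at 0 in both neoSF libraries. In monoiPSCs it had 4 counts and 14 counts in the FD2M1 line at P15 and P25, with 95% intervals of 1.09 to 10.2 and 7.65 to 23.5, and 2 counts and 1 count in the LSD1 line. Its largest NRC, 8.79 in FD2M1 P25, had a counting interval of 4.80 to 14.7, which overlapped the interval of up to 7.20 that 0 counts allow in FD2M1 neoSFs. The 21 counts of the 4 monoiPSC libraries, 14 of them in FD2M1 P25, put TBXT 1.19-fold above 3 counts over the neoSF group. This ratio leaves out counting error in the 21 counts, so it is not a lower limit. EOMES, on chromosome 8 (gene 100031778), had at most 3 counts in every library, with an NRC of 2.93 and 3.29 in neoSFs and of 0 to 1.03 in monoiPSCs. These values did not overlap between the groups, but all are at or under the floor and no fold is given.

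TBX6, on chromosome 6 (gene 100012788), was measured well above the floor in all 6 libraries. Its NRC was 86.2 and 154 in the FD2M1 and LSD1 neoSFs. In monoiPSCs it was 51.3 and 64.2 in the FD2M1 line at P15 and P25, and 78.1 and 104 in the LSD1 line. The LSD1 value was above the FD2M1 value in neoSFs and at both passages, and the groups overlapped, since LSD1 P25 lay above FD2M1 neoSFs. The means were 120 ± 47.7 (SD, n = 2) and 74.4 ± 22.6 (SD, n = 4), and the log2 fold change was -0.60 (SE 0.40), or -0.09 without the LSD1 neoSF library. MSGN1, on chromosome 1 (gene 100013841), which acts beside TBX6 in the presomitic mesoderm, was listed at 0 in both neoSF libraries and in the FD2M1 line at both passages. It had 2.5 counts at P15 and 6.33 counts at P25 in the LSD1 line, an NRC of 1.31 and 3.26.

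**Figure D1:**
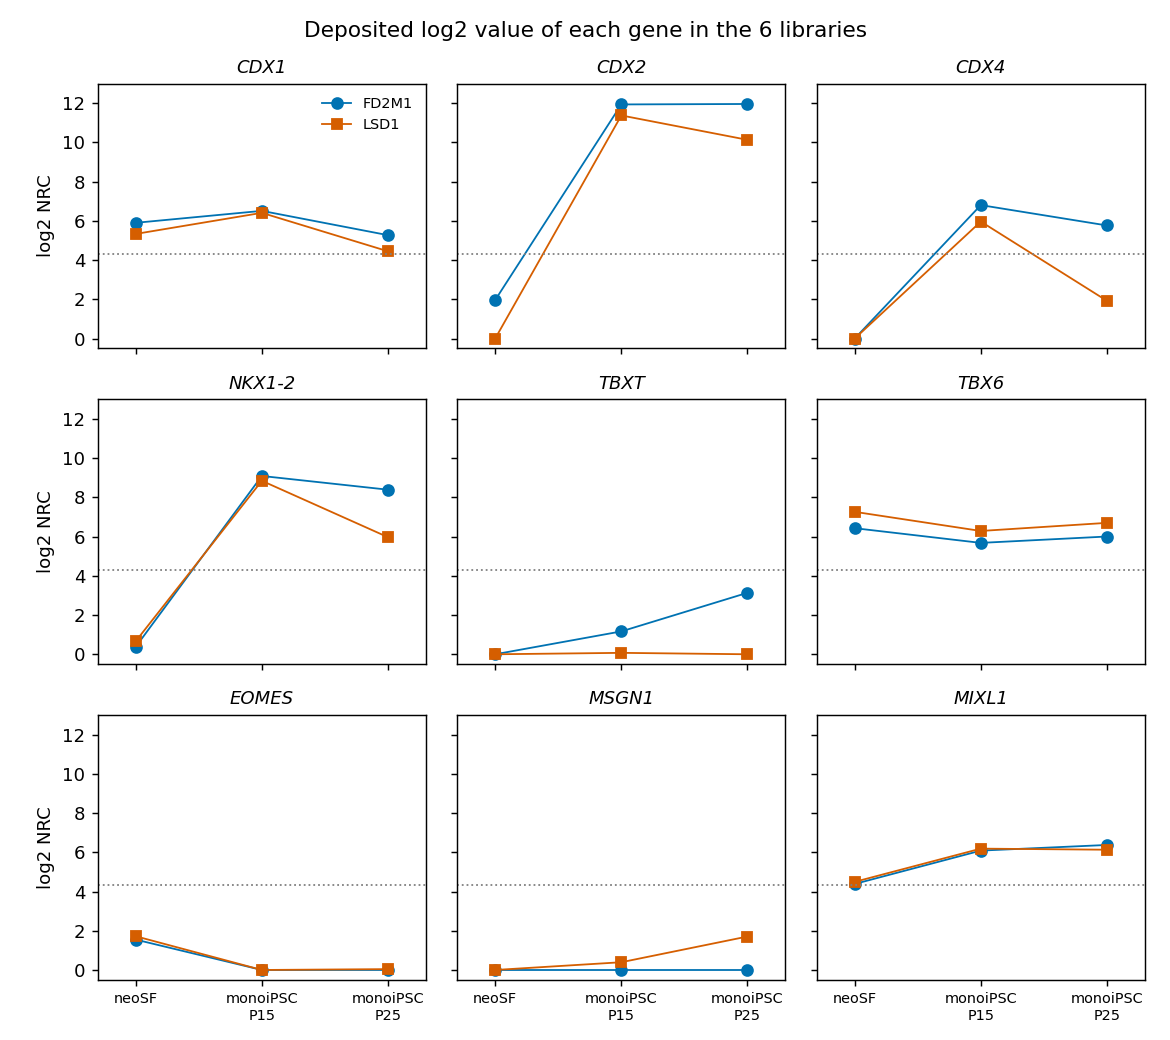
Deposited log2 NRC of each of the 9 genes (y axis, log2 scale, 0 for a gene listed at 0) in neoSFs and in monoiPSCs at P15 and P25 (x axis), with circles for FD2M1 and squares for LSD1, 1 library a point, and a dotted line at an NRC of 20. CDX2, CDX4 and NKX1-2 are near 0 in neoSFs and above the dotted line at P15, CDX4 is below it in the LSD1 line at P25, and TBXT, EOMES and MSGN1 stay below it in every library.

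Across all genes, edgeR's quasi-likelihood test called 45.9% of the 13072 tested genes different between monoiPSCs and neoSFs with thresholds of 0.05 on the Benjamini-Hochberg adjusted p and of 2 on the fold change. Of the 9 genes 5 were tested, and 3 of them, CDX2, NKX1-2 and MIXL1, were past both thresholds. All 3 were higher in monoiPSCs, the direction in which 24.3% of the tested genes were called, and 21.6% were called lower. Because the genes were chosen with this contrast known, nothing is read from these shares. Their fitted log2 fold changes were 10.72 (SE 1.03), 7.67 (SE 1.30) and 1.84 (SE 0.35). The first and second rest on neoSF counts of 2 or fewer. The log2 fold change of CDX2 was 15.17 when the FD2M1 neoSFs were left out and 9.64 when the LSD1 neoSFs were. Its SE does not cover this range.

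The comparison of passages asked whether levels held in culture, and the larger decreases of these genes were in the LSD1 line. Each line has 1 library per passage, so differences within a line have no replicate. Among the 12987 genes with a mean NRC of at least 20 over the monoiPSC libraries, which include 6 of the 9, 2.64% were at least 2-fold lower at P25 than at P15 in the LSD1 line and 6.78% at least 2-fold higher. Of the 6 genes, 4 were at least 2-fold lower and 0 at least 2-fold higher. The genes were chosen with these libraries in view, so nothing is read from such counts against the shares, here or in the comparisons below. CDX4 was 16.5-fold lower, NKX1-2 7.34-fold, CDX1 3.89-fold and CDX2 2.37-fold. Ordered from the largest decrease, CDX4 was number 2, NKX1-2 number 8, CDX1 number 40 and CDX2 number 183 of the 12987 genes. PAX6, a homeobox gene of the nervous system and eye, was number 1, with an NRC of 41.3 at P15 and 2.06 at P25. The filter uses the mean of the monoiPSC libraries, so genes near the floor in LSD1 P25 can pass it through the others. PAX6 did so, as did CDX4, whose NRC of 3.80 in LSD1 P25 rests on 7 counts, so its fold and rank are imprecise. TBX6 and MIXL1 differed little, by 0.41 and -0.06 on the log2 scale.

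In the FD2M1 line 2.89% of the genes were at least 2-fold lower at P25 and 4.04% at least 2-fold higher. Of the 6 genes, CDX1 was 2.36-fold and CDX4 2.05-fold lower. NKX1-2 was 1.62-fold lower, and CDX2 differed by 0.02 on the log2 scale. CDX1, CDX4 and NKX1-2 were thus lower at P25 in both lines, each by more in the LSD1 line, and CDX2 in the LSD1 line alone. The difference between the lines was not tested.

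Compared at the same passage, the lines were closer at P15 than at P25 for these genes. At P15 none of the 6 was at least 2-fold lower in LSD1 than in FD2M1, as 3.61% of all genes were, nor at least 2-fold higher, as 4.28% were. At P25, where 2.87% of all genes were at least 2-fold lower in LSD1, 3 of the 6 were, by 14.3-fold for CDX4, 5.36-fold for NKX1-2 and 3.55-fold for CDX2. None was at least 2-fold higher, against 6.54% of all genes. At such shares, finding none among 6 genes is not read as a result at either passage.

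**Figure D2:**
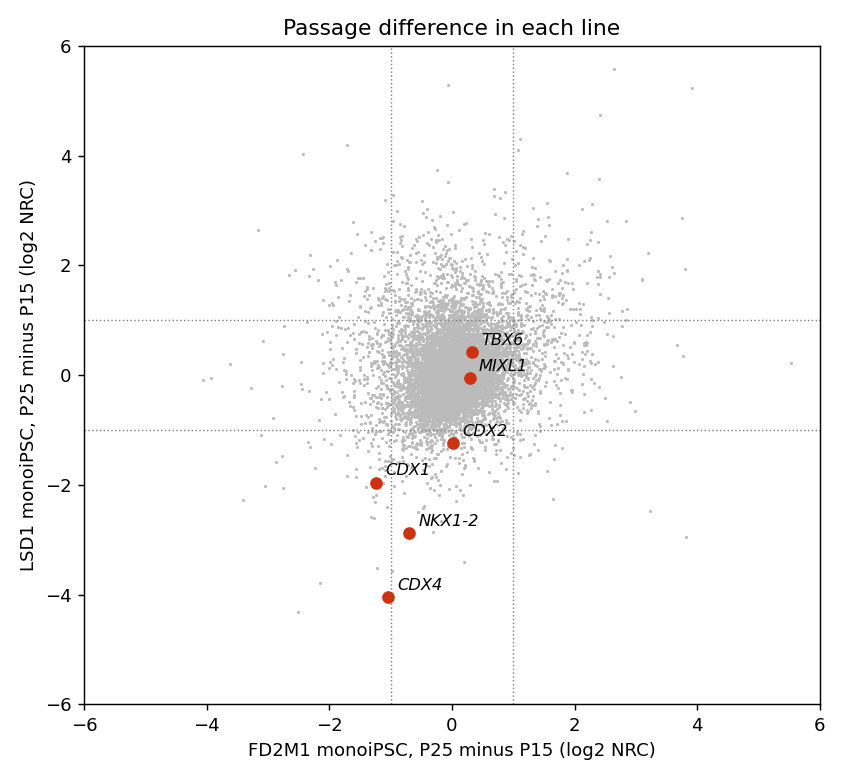
Difference in log2 NRC between P25 and P15 in the FD2M1 line (x axis) and in the LSD1 line (y axis) for all genes whose NRC averaged 20 or more over the monoiPSC libraries, in gray, with 6 of the 9 genes in red and dotted lines at 2-fold. CDX4 and NKX1-2 lie near the lower edge of the cloud, CDX1 is below the 2-fold line on both axes, CDX2 is below it in LSD1 only, and 1 of the 12987 genes lies outside the axes.

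Passage was tested on the 4 monoiPSC libraries with the line as the replicate. Line was tested on the same libraries with the 2 passages of each line in place of replicates. The SEs and calls for line therefore do not measure the spread between independent lines. EdgeR called 0 of 12252 genes for passage and 0 for line, with 1145 and 1736 genes at an unadjusted p under 0.05. DESeq2 called 115 genes (0.939%) for passage and 192 (1.57%) for line, and limma on the deposited log2 values called 0 for each. In the edgeR fit the log2 difference of P25 from P15 was -1.61 (SE 0.41) for CDX1, -1.77 (SE 0.53) for NKX1-2 and -0.62 (SE 0.31) for CDX2. The log2 difference of LSD1 from FD2M1 was -1.19 (SE 0.31) for CDX2, -1.29 (SE 0.53) for NKX1-2 and 0.66 (SE 0.35) for TBX6. CDX4 was not tested, having an NRC under 20 in LSD1 P25.

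Skeletal muscle markers moved with the LSD1 P25 library. This list was drawn up after the values were seen, and 13 of its 16 genes were found. Their summed NRC was 37273 in LSD1 P25 and 4572 to 10950 in the other monoiPSC libraries, and 19939 and 22211 in neoSFs, where ACTC1 alone had 16344 and 21468. Of the 11 with a mean NRC of at least 20, none was lower at P25 in the LSD1 line and 8 were at least 2-fold higher, with a median log2 difference of 2.45. MYOD1, the myogenic determination factor, had an NRC of 99.4 at P15 and 591 at P25 in LSD1. In the FD2M1 line 9 of the 11 were lower at P25, with a median of -0.57, and 3 of these at least 2-fold. MYF5 and MYF6, which also define the muscle lineage, were near 0, with an NRC of 1.03 and 2.01 in LSD1 P25. Of the 8 pluripotency markers 5 were lower at P25 than at P15 in LSD1 and 3 higher, with a median log2 difference of -0.21. LIN28B and LIN28A had differences of -1.03 and -0.97 and NANOG one of 0.76. CER1 and FOXA2, genes of endoderm and of the anterior streak, were higher at P25 in both lines, by 2.01-fold and 2.53-fold in LSD1 and by 4.89-fold and 3.33-fold in FD2M1. Their list did not move as 1. FOXH1 was lower at P25 in both lines, by -0.43 in FD2M1 and -0.28 in LSD1 on the log2 scale. TDGF1 differed by 1.42 in FD2M1 and -0.05 in LSD1, and SNAI1 by 0.27 and 0.86. The part of the cells that express any of these markers in the lower values of CDX1, CDX2, CDX4 and NKX1-2 was not tested.

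CDX2 belongs to the ParaHox genes, a small group of homeobox genes that includes GSX1 and PDX1 and in vertebrates forms a cluster with CDX2. In the RefSeq gene order of the opossum PDX1 and GSX1 lie on one side of CDX2 and URAD and FLT3 on the other. GSX1, a factor of the developing nervous system, was listed at 0 in both neoSF libraries and had an NRC of 92.9 and 72.3 in the FD2M1 line at P15 and P25 and of 45.8 and 28.6 in the LSD1 line. All 4 monoiPSC values were above the floor, and the order over the libraries differed from that of CDX2 only within the FD2M1 line. GSX1 was 23.9-fold above 3 counts over the neoSF group (edgeR adjusted p = 0.00185). PDX1, which directs pancreas development, lies between GSX1 and CDX2 and stayed at an NRC of 1.55 to 6.66 in monoiPSCs, and at 0 in neoSFs. URAD, on the other side, went from 0 and 1.58 in neoSFs to 46.0 to 98.1 in monoiPSCs. FLT3, a receptor tyrosine kinase of blood progenitors, was at 43.6 and 16.9 in neoSFs and at 440 to 663 in monoiPSCs.

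**Figure D3:**
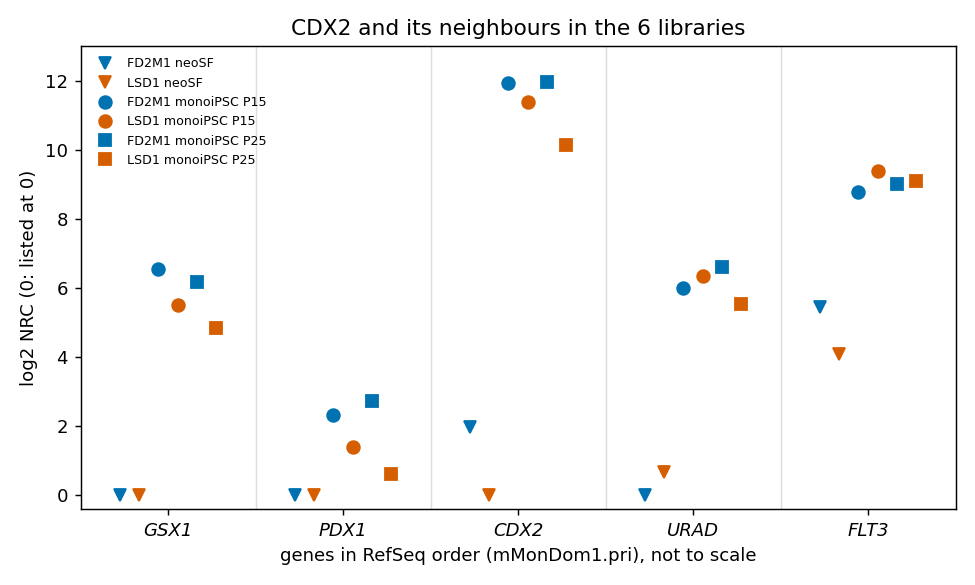
Log2 NRC (y axis) of CDX2 and of the genes on either side of it in the RefSeq gene order (x axis, not to scale), with triangles for neoSFs, circles for P15 and squares for P25, blue for FD2M1 and orange for LSD1, 1 library a point. For each of the 5 genes the monoiPSC points lie above the neoSF points, with PDX1 near the floor, and heights of different genes are not comparable because the NRC is not divided by length.

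The genes whose log2 NRC followed each member most closely over the 6 libraries were ranked by Pearson's r among 11227 genes. The 6 values are not independent and fall into 2 cell types, so r is high wherever these differ, and it is a description only. For CDX2 the highest r were those of TAF15 (0.9999), IL17RD (0.9998), which encodes an FGF signaling inhibitor, and MCM5 (0.9995), a replication factor. For NKX1-2 they were ORC6 (0.999), a subunit of the origin recognition complex, the homeobox gene IRX3 (0.998) and BOP1 (0.998). For MIXL1 they were KREMEN2 (0.999), which encodes a receptor of the WNT inhibitor DKK1, HMMR (0.999) and KIF18A (0.999). For CDX1, whose cell types overlapped, they were PPP1R8 (0.994), PTP4A1 (0.987) and the WNT ligand WNT5B (0.984), and for TBX6 MFSD12 (0.998), ZCCHC7 (0.995) and IDH3B (0.988).

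The surrounding pathways were followed in lists of genes, read from the same edgeR fit, in which the median log2 fold change over all tested genes was 0.08. The lists were chosen with earlier results of these data known, and most genes named are the extremes of their list. Their adjusted p-values therefore describe the fit and are not tests of genes chosen beforehand. Over all tested genes, 24.3% were called higher in monoiPSCs and 21.6% lower. These shares stand beside the counts of every list below, and no list was tested against them. Of 13 ligands of the streak, 7 were tested, 3 rose, 1 fell and 3 were not called, with a median log2 fold change of 0.67. WNT8A had an NRC of 1.95 and 0 in neoSFs and of 978 and 920 in the FD2M1 line and 1541 and 504 in the LSD1 line at P15 and P25 (adjusted p = 0.000109). WNT3, the ligand that starts the streak in the mouse, had an NRC of 0 and 3.17 in neoSFs and of 73.0 to 213 in monoiPSCs (adjusted p = 0.00118). FGF18 rose by 2.43 on the log2 scale (SE 0.39, adjusted p = 0.00143) and BMP4 fell by 1.34 (SE 0.24, adjusted p = 0.00203). FGF8, the FGF of the mouse streak, was at 0 in neoSFs and at 8.18 to 24.7 in monoiPSCs, NODAL was at most at 11.3 in any library, and FGF3, FGF4 and FGF17 had at most 3 counts in every library.

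Among partners and WNT targets of the posterior axis, 15 of 17 genes were found and 13 tested, of which 6 rose, 2 fell and 5 were not called, with a median of 1.67. GBX2 had an NRC of 5.85 and 4.91 in neoSFs and of 1074 to 1923 in monoiPSCs (adjusted p = 1.77e-05). SP8, a zinc finger factor, had an NRC of 1.95 and 0 in neoSFs and of 91.8 to 229 in monoiPSCs (adjusted p = 0.000465). SALL4 rose by 4.43 on the log2 scale (SE 0.31, adjusted p = 3.89e-05). The WNT target genes AXIN2, NOTUM and TCF7 rose as well, with log2 fold changes of 2.36, 4.17 and 1.67, and the WNT targets LEF1, NKD1 and SP5 were not called, at -0.67, 0.71 and 1.87. FST, which binds activin, fell by 3.06 (SE 0.49, adjusted p = 0.00139), and RSPO3, which enhances WNT signaling, fell by 2.69 (SE 0.62, adjusted p = 0.00731). The calls of RSPO3 and TCF7 were lost without the FD2M1 neoSF library (edgeR adjusted p = 0.0512 and 0.116) and that of NOTUM without the LSD1 neoSF library (adjusted p = 0.0644). In the LSD1 line 10 of the 13 were lower at P25 than at P15, 4 of them at least 2-fold, among them NOTUM at an NRC of 195 and 37.1 and AXIN2 at 706 and 288. SP8 was 2.17-fold higher in that line. In the FD2M1 line 10 of the 13 were lower, 1 of them at least 2-fold, and SP5 was 2.55-fold higher. The shares of all genes past 2-fold are those given with the passage comparison.

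All 10 trunk HOX genes that were found were tested, and 7 rose, 1 fell and 2 were not called, with a median of 1.54. HOXB5 had an NRC of 60.6 and 22.9 in neoSFs and of 537 to 939 in monoiPSCs (adjusted p = 0.000238). HOXB9 rose by 2.96 (SE 0.34, adjusted p = 0.000324) and HOXB6 by 2.84 (SE 0.29, adjusted p = 0.000178), while HOXA7 fell by 1.47 (SE 0.29, adjusted p = 0.00335). Without the FD2M1 neoSF library the log2 fold change of HOXA7 was -0.95, under the fold threshold. None of the 10 was at least 2-fold lower at P25 in either line, as 2.64% of all genes were in LSD1 and 2.89% in FD2M1. At such shares, 0 of 10 is not read as a result. HOXD9 was 2.38-fold higher at P25 in FD2M1, where 4.04% of all genes were at least 2-fold higher. These genes were present in neoSFs too, each at an NRC of at least 20 in both cultures.

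Genes that act after the streak were split. Of the presomitic and somite genes 14 were found and 11 tested, with 5 higher, 4 lower and 2 not called, and a median of 0.68. DLL3, a Notch pathway ligand of presomitic mesoderm, was at 0 in both neoSF libraries and at 231 to 696 in monoiPSCs. It was 158-fold above 3 counts over the neoSF group (edgeR adjusted p = 0.000448). The somite genes MEOX1 and TCF15 rose to an NRC of 41.6 to 81.6 and 112 to 363. PAX1, FOXC2 and MEOX2, which are also genes of connective tissue precursors, fell, with log2 fold changes of -4.88, -3.05 and -2.49. Without the FD2M1 neoSF library the log2 fold changes of PAX1 and MEOX2 were -1.94 and -0.99 and neither was called (edgeR adjusted p = 0.162 and 0.223). MESP2 had at most 3 counts in every library.

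Of the mesendoderm and anterior streak genes 14 were found but only 6 tested, with 4 higher, 1 lower and 1 not called. The median was 7.53, or 5.13 with a gene at the floor set to its bound. TDGF1, a NODAL co-receptor, and FOXH1, a transcription factor of the NODAL pathway, were higher, at 451 to 1209 and 22.5 to 41.2 in monoiPSCs. CER1, a secreted NODAL inhibitor, had an NRC of 5.85 and 12.7 in neoSFs and of 1096 to 5354 in monoiPSCs (adjusted p = 0.000324), and FOXA2, a factor of endoderm and node, 27.3 and 26.4 against 1118 to 3820 (adjusted p = 0.000311). GATA6 fell by 5.77 (SE 0.85, adjusted p = 0.000938). GSC, an organizer gene, did not exceed an NRC of 11.4 in any library, SOX17 was at 2.51 in FD2M1 P25 and at 0 elsewhere, and GDF3 and GATA4 had at most 3 counts in every library.

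Of 12 T-box genes outside the streak that were found, 5 were tested, 1 rose, 3 fell and 1 was not called, with a median of -3.80. TBX3 fell from an NRC of 1867 and 1706 to at most 4.39 (adjusted p = 9.69e-06), and TBX18 and TBX15 had log2 fold changes of -7.12 and -3.80, both past the thresholds. TBX2 rose by 2.93 (SE 0.83, adjusted p = 0.0169), with an NRC of 3492 and 1980 in the FD2M1 line at P15 and P25 and of 1094 and 432 in the LSD1 line, and its call was lost without either neoSF library (adjusted p = 0.0538 and 0.0901).

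**Figure D4:**
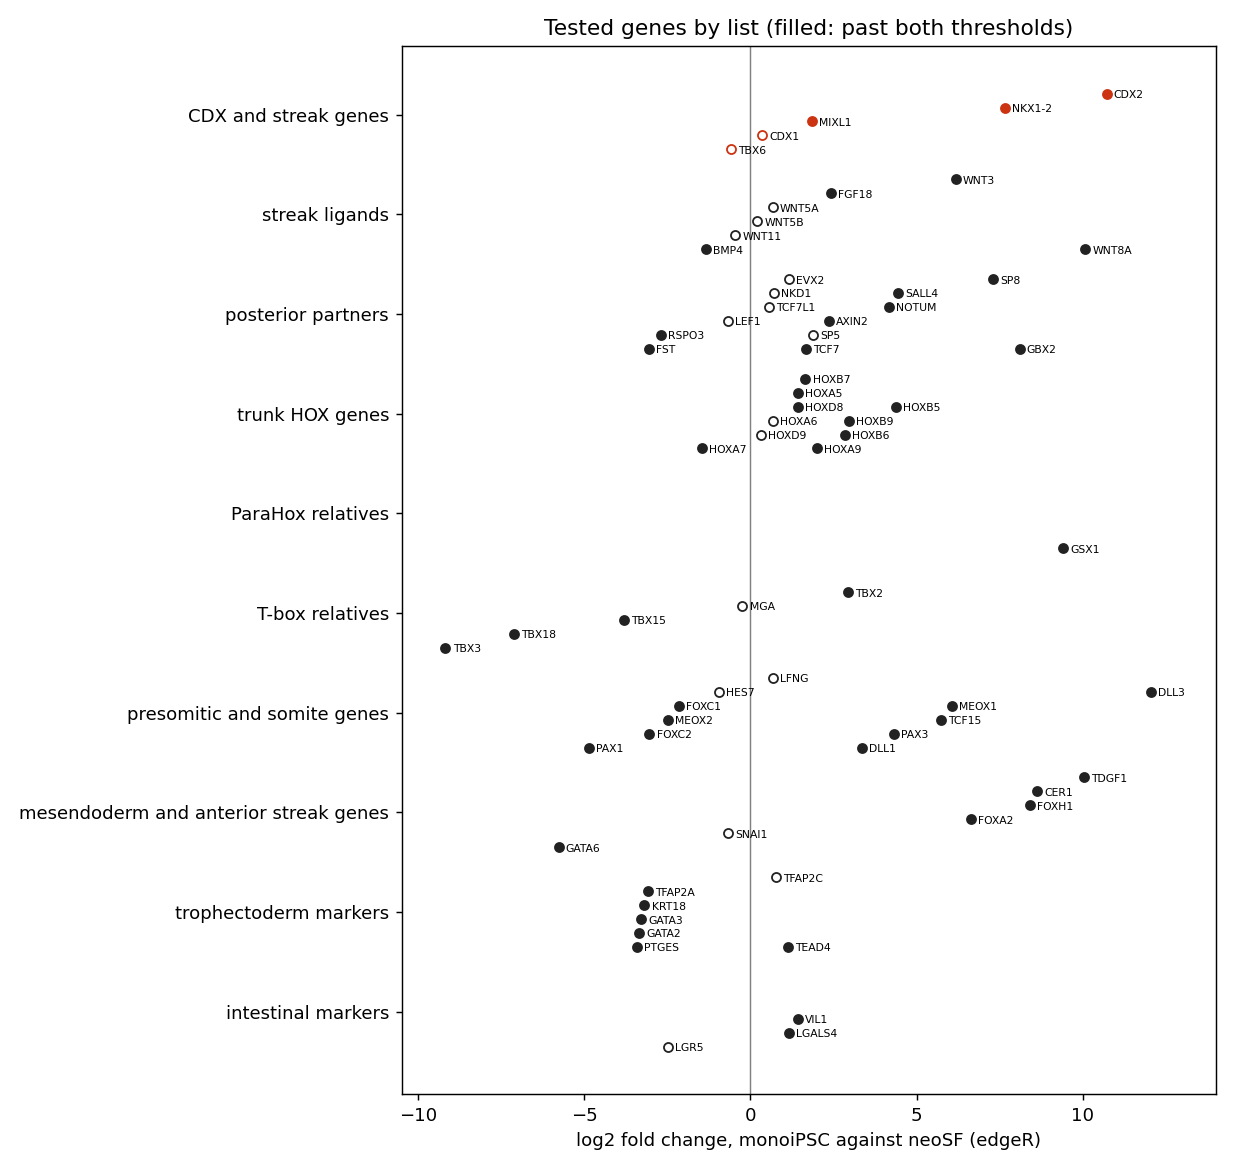
Log2 fold change of monoiPSCs against neoSFs from edgeR (x axis) for the tested genes of each list (y axis), with filled points for genes past both thresholds, open points for the others, and the CDX and streak genes in red. CDX2, NKX1-2 and MIXL1 are filled on the right, CDX1 and TBX6 are open near 0, and the trophectoderm list has 5 of its 7 tested genes filled on the left. GSX1, DLL3 and FOXH1 had 0 counts in neoSFs, and the position of their points depends on the prior count.

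The markers of the other cell types known for CDX2 were read in the same way. Of the trophectoderm markers 9 of 12 were found and 7 tested, of which 1 rose, 5 fell and 1 was not called, with a median of -3.19. TEAD4 rose by 1.12 (SE 0.21, adjusted p = 0.00261), while GATA2, GATA3 and PTGES fell, with log2 fold changes of -3.36, -3.29 and -3.42. Without LSD1 P25 the log2 fold change of TEAD4 was 0.98, under the fold threshold. The levels in monoiPSCs were 16.8 to 89.2 for GATA2, 8.79 to 54.0 for GATA3, 40.5 to 52.3 for PTGES and 12.5 to 102 for TFAP2A. They were 1640 to 2577 for TEAD4, 514 to 1595 for KRT18 and 338 to 635 for TFAP2C, which was not called. KRT18 and TFAP2A fell from higher levels in neoSFs. ELF5, which is needed for mouse trophoblast stem cells, had at most 3 counts in every library. The summed NRC of the 9 markers was 5385 and 22219 in neoSFs and 2796 to 4716 in monoiPSCs, and from P15 to P25 it went from 2796 to 4573 in the FD2M1 line and from 3123 to 4716 in the LSD1 line. KRT18 and TEAD4 made up much of these sums, at 514 and 1640 in FD2M1 P15 and 1532 and 2196 in FD2M1 P25. GATA3 was 6.14-fold and 3.89-fold higher at P25 in the FD2M1 and LSD1 lines, and KRT18 2.98-fold and 2.06-fold. Of the 7 tested markers, 3 were lower at P25 in FD2M1 and 1 in LSD1. GATA2 was 2.29-fold and TFAP2A 1.40-fold lower in FD2M1, and PTGES was lower in both lines, by 1.07-fold and 1.27-fold. Of the intestinal markers 9 were found and 3 tested, with VIL1 and LGALS4 higher, at log2 fold changes of 1.43 and 1.16, and LGR5 not called. The call of VIL1 was lost without the LSD1 neoSF library (edgeR adjusted p = 0.101), and that of LGALS4 without any 1 of 5 of the 6 libraries (adjusted p of 0.0674 to 0.129). KRT20, ISX and FABP2 had at most 3 counts in every library, CDH17 did not exceed 3.77 in monoiPSCs, and the summed NRC of the 9 was 354 and 1116 in neoSFs and 210 to 384 in monoiPSCs.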

How the data were processed

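The 2 neoSF and 4 monoiPSC RNA-seq libraries were used. The authors aligned reads to MonDom5 and its RefSeq transcripts with StrandNGS, filtered them by quality and multiple mapping, and deposited raw counts per gene. The deposited counts were treated as estimated counts, which the authors made by counting reads on genes, because 87.1% of those above 0 are fractional, and were rounded for the tests. A second deposited file holds the authors' log2 values after normalization with DESeq, and the NRC is 2 to the power of these. The submitters' processing notes name bcl2fastq and DESeq.

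Genes with an NRC of 20 or more in every library of at least 1 cell type were tested with edgeR 4.0.16 (R 4.3.3, glmQLFit, TMM scaling) without a block, and called with thresholds of 0.05 on the Benjamini-Hochberg adjusted p and 2 on the fold change. DESeq2 1.42.0, limma 3.58.1, other scaling, no filter, a strain block, summed passages and leaving out each library were alternatives. An SE given with an edgeR log2 fold change is its absolute value divided by the square root of the quasi-likelihood F statistic, so it is approximate. The fits were checked on simulated counts. Passage was tested with line as covariate, and line with passage. The same strain is the source of a culture and its line, so strain pairs the samples, although the LSD1 minus FD2M1 differences correlated at only r = 0.040 across 13072 genes. Nothing says that cultures came from separate animals beyond the strains, so p-values measure the spread between these libraries. Intervals cover counting error only.

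The 9 genes and all lists were chosen with earlier results of these data known, so adjusted p-values of listed genes, GSX1 among them, are a description. Named besides them are, per list, up to 3 called genes with the highest and 3 with the lowest fold change, and for each of the 9 at an NRC of at least 20 in all monoiPSCs the 3 genes of highest r. Other genes were named after their values were seen. The RefSeq table is of mMonDom1.pri, another assembly, and was used for names and gene order only. No sequences or coordinates are given.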

Additional observations from a re-analysis of the deposited data

Results flagged for a closer look

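In EOMES the gap of the highest of the 4 monoiPSC libraries from the others took up the whole range, a Dixon ratio of 1, because 3 libraries were listed at 0 and LSD1 P25 had an NRC of 1.03, which is 2 counts. Chance flags about 1 in 20 groups. The ratio was 0.787 for CDX4 and 0.776 for NKX1-2, in both with LSD1 P25 as the lowest library, and these stayed under the 95% critical value.

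The passage difference of CDX2 had opposite signs in the lines, 0.02 in FD2M1 and -1.24 in LSD1, so that the LSD1 difference minus the FD2M1 difference was -1.27 on the log2 scale. For MIXL1 the signs were opposite too, 0.29 and -0.06, and the difference was -0.34. Each rests on 1 library per line and passage, and neither difference between the lines was tested.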

How the results depend on the processing

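Between monoiPSCs and neoSFs the number of genes called was 6000, and 5686 to 6780 over all alternatives (5785 to 5986 leaving out 1 library). Of the 9 genes 3 were called, and 3 to 4 leaving out 1 library, with CDX4 the fourth without LSD1 P25 and with no filter. Of the genes in the pathway lists 39 were called, and 35 to 39 leaving out 1 library. The strain block, which pairs each line with its source culture, gave 6012 genes, 3 of the 9 and 39 listed genes, and it cost no named gene its call. For passage DESeq2 called 115 genes and for line 192, where edgeR called 0, and the cause was not tested. Counting 2-fold differences between single libraries, chosen after seeing the data, gave 900 genes in FD2M1 and 1223 in LSD1 for passage, and 1025 at P15 and 1222 at P25 for line. Of 61 log2 fold changes of single genes, 58 moved by less than the SD of that gene's log2 NRC over the 4 monoiPSC libraries. This SD is not the error of the fold change, and it is wide where LSD1 P25 lay apart. None reversed, and 3 moved by more, which are those of CDX2 and TBX6 given with these genes. Of 47 listed genes named as called, 11 lost the call in 19 of 564 refits and none reversed, mostly without a neoSF library. VIL1 and LGALS4 also lost it with passages summed, and LGALS4 with no filter. Another scaling moved the median log2 fold change of all genes from 0.08 to 0.03, and limma to -0.01. Leaving out a library was not run for passage or line, since no residual degrees of freedom remain. At 3 counts, the depth limits TBXT, EOMES and MSGN1.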

Other observations

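Muscle regulators were also present in cells other than LSD1 P25. MYOG, a myogenic factor that acts after MYOD1, had an NRC of 206 and 22.2 in the FD2M1 and LSD1 neoSFs, of 1527 and 985 in the FD2M1 line at P15 and P25, and of 4135 and 5549 in the LSD1 line. It was past both thresholds and higher in monoiPSCs, as was RYR1, a calcium channel of muscle, with a log2 fold change of 3.64 (SE 0.53). ACTC1, the cardiac actin gene, was past both as lower, at -2.89 (SE 0.82). Without the LSD1 neoSF library it was at -2.65 and its call was lost. The other 8 tested markers of this list were not called. The list was drawn up after its values were seen, so no p-value is given for its genes.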
